A study of Homo sapiens with 4 samples.

Results

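The genes described here are 6 insulin-like growth factor (IGF) binding proteins, IGFBP2 to IGFBP7, the type 1 IGF receptor IGF1R, the insulin receptor INSR and the docking proteins IRS1 and IRS2. They were chosen by name, with earlier results of these data known. Probe sets annotated to exactly 1 of these 10 genes were used, which gave 29 of the 54613 probe sets on the array. All arrays came from KYSE170 cells, an established human line of oesophageal squamous carcinoma, kept in serum-containing medium. Cells given ethyl-3,4-dihydroxybenzoate (EDHB) at 50 µg/ml for 12 h (2 arrays) were compared with cells left untreated (2 arrays). EDHB inhibits prolyl hydroxylases, the enzymes that mark hypoxia-inducible factors for degradation. The line is 1 tumour line, nothing in the labels says whether replicates were separate cultures, and p-values therefore measure only the spread between these arrays.

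Insulin and the IGFs bind INSR and IGF1R, receptor tyrosine kinases that phosphorylate IRS1 and IRS2. The phosphorylated docking proteins recruit phosphoinositide 3-kinase, which activates AKT and through it mTORC1, while AKT keeps forkhead (FOXO) factors out of the nucleus. FOXO factors are known to raise transcription of INSR and IRS2 when insulin signalling is low. The IGF binding proteins are secreted carriers that hold IGFs in the extracellular fluid, prolong their life and limit or direct their access to IGF1R.

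The insulin receptor and its docking protein IRS2 had higher levels in EDHB cells and IRS1 had lower levels, while the binding proteins differed little or varied more between replicates than between conditions. INSR was 1.72-fold and IRS2 1.53-fold as high in EDHB cells as in untreated cells, and IRS1 was 0.69-fold as high. With 2 arrays per group, 0 of the 10 genes passed an adjusted p of 0.05 over all 19751 genes in limma, a fit in which 0.0101% of all genes passed. At an unadjusted p under 0.05 the same fit had 3 members higher (INSR, IRS2 and IGF1R), beside 8.81% of all genes, and 1 lower (IRS1), beside 7.98%. When limma's prior variance followed intensity, INSR and IRS2 passed (adjusted p = 0.0446 and 0.0410), beside 1.07% of all genes passing higher and 0.83% lower, and IRS1 did not (0.0691). Both calls were lost without any 1 of the 4 arrays and with a replicate block, and over 17 alternatives the adjusted p ran from 0.0378 to 0.575 for INSR and from 0.0410 to 0.575 for IRS2.

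Both EDHB arrays lay above both untreated arrays in 3 of the 10 genes, beside 23.2% of all genes, and below both in 1 gene, beside 22.5%. The median log2 change of the members was 0.03, against 0.00 over all genes. The members ran from -0.53 (IRS1) to 0.78 (INSR). An exact permutation test over 2 against 2 arrays cannot give a two-sided p below 0.333, so none is given for single genes.

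Levels below are log2 intensities after RMA, on which a difference of 1 is a 2-fold change, and can be compared between arrays but not between probe sets. The median over arrays and probe sets was 4.54, and a probe set with a mean below it was not shown to be above background. Of the 29 member probe sets, 17 lay above this median. The replicate 2 columns of the deposited table stood in another row order, and their rows were recovered from the untreated arrays. All 29 member probe sets were recovered, each with a posterior of at least 0.9998. The change within replicate 1 needed no recovery and is given for part of the member probe sets. Levels given as a pair for a group list replicate 1 first. Mean changes also rest on the recovered rows. Medians of linear intensity per array were 23.3 to 23.5.

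The squamous markers SFN, S100A2 and PKP1 had levels from 8.36 to 13.30 on the 4 arrays, while KRT14, a basal keratin, lay between 3.19 and 4.30, below the median probe set. Of the 6 squamous markers analysed, 5 lay above the median, with a list range of 3.19 to 13.30. Markers of stroma lay above it for 2 of 6 genes (list range 2.56 to 6.49), of endothelium for 1 of 4 (2.20 to 5.21) and of leukocytes for 0 of 4 (1.68 to 4.48). In these lists no marker passed limma's adjusted threshold with or without the trend, 1 had an unadjusted p under 0.05 (the leukocyte marker PTPRC, below the median probe set), and their part in the results below was not tested.

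**Figure D1:**
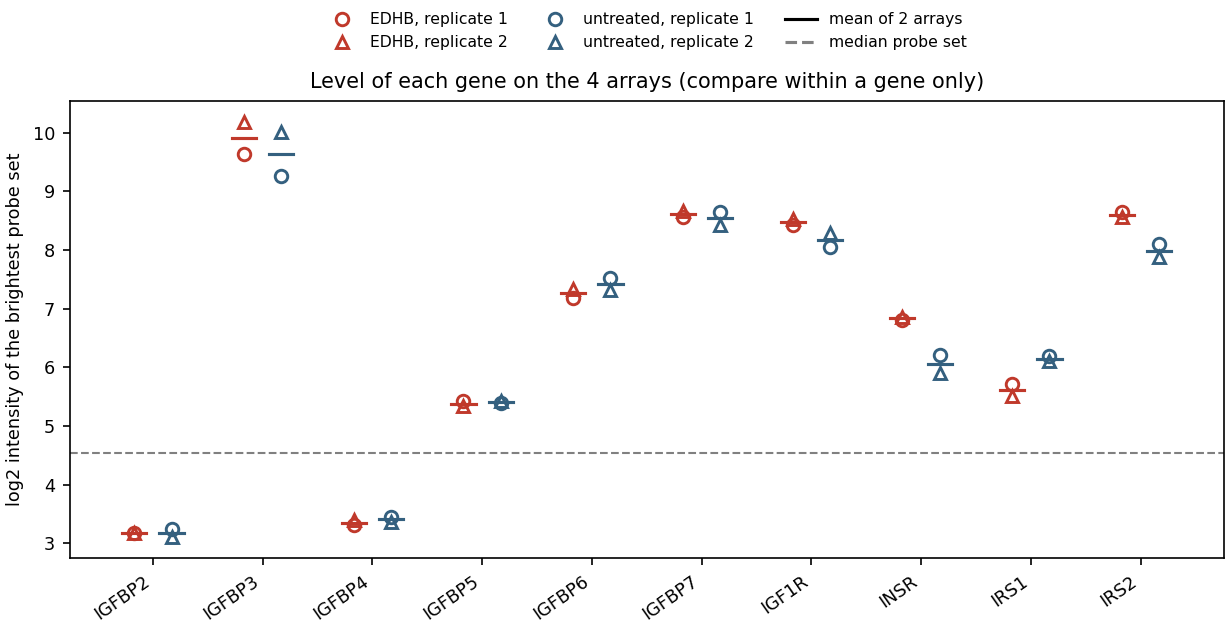
Log2 intensity of the brightest probe set of each gene on the 4 arrays, with EDHB (red) left of untreated (blue), circles for replicate 1, triangles for replicate 2 and bars for the mean of 2 arrays. INSR and IRS2 have both EDHB arrays above both untreated arrays and IRS1 has them below, whereas the 2 replicates of IGFBP3 lie farther apart than the 2 conditions.

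Among the binding proteins, IGFBP3 is the main IGF carrier of serum and also slows growth of many epithelial cells. IGFBP3 (probe set 210095_s_at) had levels of 9.63 and 10.19 in EDHB replicates 1 and 2, against 9.26 and 10.02 in untreated replicates 1 and 2. Replicate 2 was higher than replicate 1 in both conditions, and the groups overlapped. The change was 0.37 within replicate 1 and 0.17 within replicate 2, with a mean of 0.27 ± 0.31 (SE; limma adjusted p = 0.734). Its other probe set (212143_s_at) showed the same order, with 7.71 and 8.47 in EDHB cells against 7.41 and 8.26 in untreated cells.

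The gap between replicates was large for IGFBP3. Its EDHB arrays differed by 0.56 log2 units and its untreated arrays by 0.76. A gap at least as large was found in 0.846% of all genes between the EDHB arrays and in 0.324% between the untreated arrays. The basal keratins KRT14 (below the median probe set) and KRT5 were higher in replicate 2 as well. Their gaps were 0.60 and 0.49 between the EDHB arrays and 1.11 and 0.51 between the untreated arrays. The other squamous markers analysed had smaller gaps (replicate 2 minus replicate 1). These ran from 0.05 to 0.29 between the EDHB arrays and from -0.17 to 0.18 between the untreated arrays. The part of any marker in the IGFBP3 gap was not tested. Leaving out 1 array unbalanced the replicates, so that this gap entered the comparison of conditions. The IGFBP3 change was then -0.111 without untreated replicate 1, -0.014 without EDHB replicate 2 and 0.65 without untreated replicate 2. Within each replicate number the change was positive on both probe sets. With the replicate number as a block the SE fell to 0.08 and the gene still missed the threshold (adjusted p = 0.307).

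IGFBP6, which binds IGF2 in preference to IGF1, had levels of 7.18 and 7.34 in EDHB cells, against 7.52 and 7.32 in untreated cells. Untreated replicate 1 was the highest array and EDHB replicate 1 the lowest, while the replicate 2 arrays lay close together between them. The change was -0.33 within replicate 1 and 0.01 within replicate 2 (mean -0.16 ± 0.11, SE; limma adjusted p = 0.527).

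IGFBP7, a low-affinity IGF binder found in the matrix and around vessels, had levels of 8.56 and 8.66 in EDHB cells and 8.65 and 8.43 in untreated cells on its brightest probe set (201162_at). The groups overlapped there, with a mean change of 0.07 ± 0.10 (SE; limma adjusted p = 0.812). The second probe set (201163_s_at) had 7.67 and 7.90 against 7.66 and 7.54, and the EDHB arrays lay above the untreated ones by a margin of 0.01 within replicate 1 and 0.36 within replicate 2. The third (213910_at) lay below the median probe set, at 2.13 to 2.52.

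IGFBP5, a binding protein with strong affinity for matrix, was read by 6 probe sets, of which 2 lay above the median probe set. The brightest (203426_s_at) had 5.42 and 5.34 in EDHB cells and 5.40 and 5.42 in untreated cells, and no difference was detectable (mean -0.03 ± 0.08, SE; limma adjusted p = 0.903). Changes over the 6 ran from -0.09 to 0.24, and the highest came from a probe set (1555997_s_at) at levels of 1.45 to 1.84, far below the median.

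IGFBP2 and IGFBP4 were not shown to be above background. IGFBP2 had levels of 3.17 and 3.17 in EDHB cells and 3.25 and 3.10 in untreated cells. IGFBP4, the binding protein that the protease PAPPA cleaves, had 3.31 and 3.39 in EDHB cells and 3.45 and 3.37 in untreated cells. Each was read by 1 probe set, both groups overlapped and no fold is given.

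Of the receptors, INSR differed more than IGF1R. INSR on its brightest probe set (213792_s_at) had levels of 6.81 and 6.86 in EDHB cells, against 6.21 and 5.90 in untreated cells. The EDHB arrays lay close together and above both untreated arrays. The change was 0.60 within replicate 1 and 0.96 within replicate 2, with a mean of 0.78 ± 0.12 (SE; limma adjusted p = 0.117). A change at least this high was found in 0.511% of the genes tested, which leave out 80 of the 193 values listed as at least 2-fold changed in replicate 2, whose rows were not recovered.

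The other INSR probe sets did not all behave alike. The next brightest (226216_at) had 5.88 and 5.81 in EDHB cells against 5.06 and 4.73 in untreated cells, a change of 0.82 and 1.09 within replicates 1 and 2. Another (226450_at), just above the median probe set, was higher by 0.22 and 0.06. Of the 2 below the median, 207851_s_at was lower, with 3.64 and 3.58 against 3.85 and 3.90, and 226212_s_at had 3.25 and 3.20 against 3.19 and 3.04. The mean over all 5 probe sets was 0.34, where 0.78 came from the brightest. The 226216_at value of replicate 2 stood among the probe sets listed as at least 2-fold higher, and the other 28 member probe sets stood outside such lists.

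IGF1R on its brightest probe set (203627_at) had levels of 8.42 and 8.53 in EDHB cells, against 8.05 and 8.29 in untreated cells. The groups did not overlap, with changes of 0.37 and 0.23 and a mean of 0.30 ± 0.11 (SE; limma adjusted p = 0.279). The mean change was 0.179 without untreated replicate 1 and 0.421 without untreated replicate 2. This was not shared by 2 other probe sets well above the median. One (203628_at) had 7.80 and 7.79 in EDHB cells against 7.86 and 7.80 in untreated cells, and the other (225330_at) had 7.74 and 7.78 against 7.78 and 7.80. The mean over all 5 IGF1R probe sets was 0.07.

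The docking proteins differed in opposite directions. IRS2 (209185_s_at) had levels of 8.64 and 8.57 in EDHB cells, against 8.10 and 7.88 in untreated cells. Both EDHB arrays lay above both untreated arrays, by 0.54 within replicate 1 and 0.69 within replicate 2 (mean 0.61 ± 0.10, SE; limma adjusted p = 0.125). Its other probe set (209184_s_at) gave 7.17 and 7.19 against 6.63 and 6.47, a change of 0.54 and 0.72. Both probe sets of IRS2 thus gave nearly the same change.

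IRS1 (204686_at) had levels of 5.71 and 5.51 in EDHB cells, against 6.19 and 6.10 in untreated cells. Both EDHB arrays lay below both untreated arrays, with changes of -0.48 and -0.59 (mean -0.53 ± 0.10, SE; limma adjusted p = 0.141). A change at least as low was found in 0.754% of the genes tested, and one at least as high as that of IRS2 in 1.04%. The second IRS1 probe set (238933_at) was lower as well, with 4.27 and 4.52 against 4.94 and 4.63. The third (242979_at), below the median probe set, was lower by 0.55 within replicate 1 and higher by 0.15 within replicate 2. The change of IRS2 exceeded that of IRS1 by 1.01 log2 units within replicate 1 and by 1.28 within replicate 2, a difference of differences that was not tested.

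**Figure D2:**
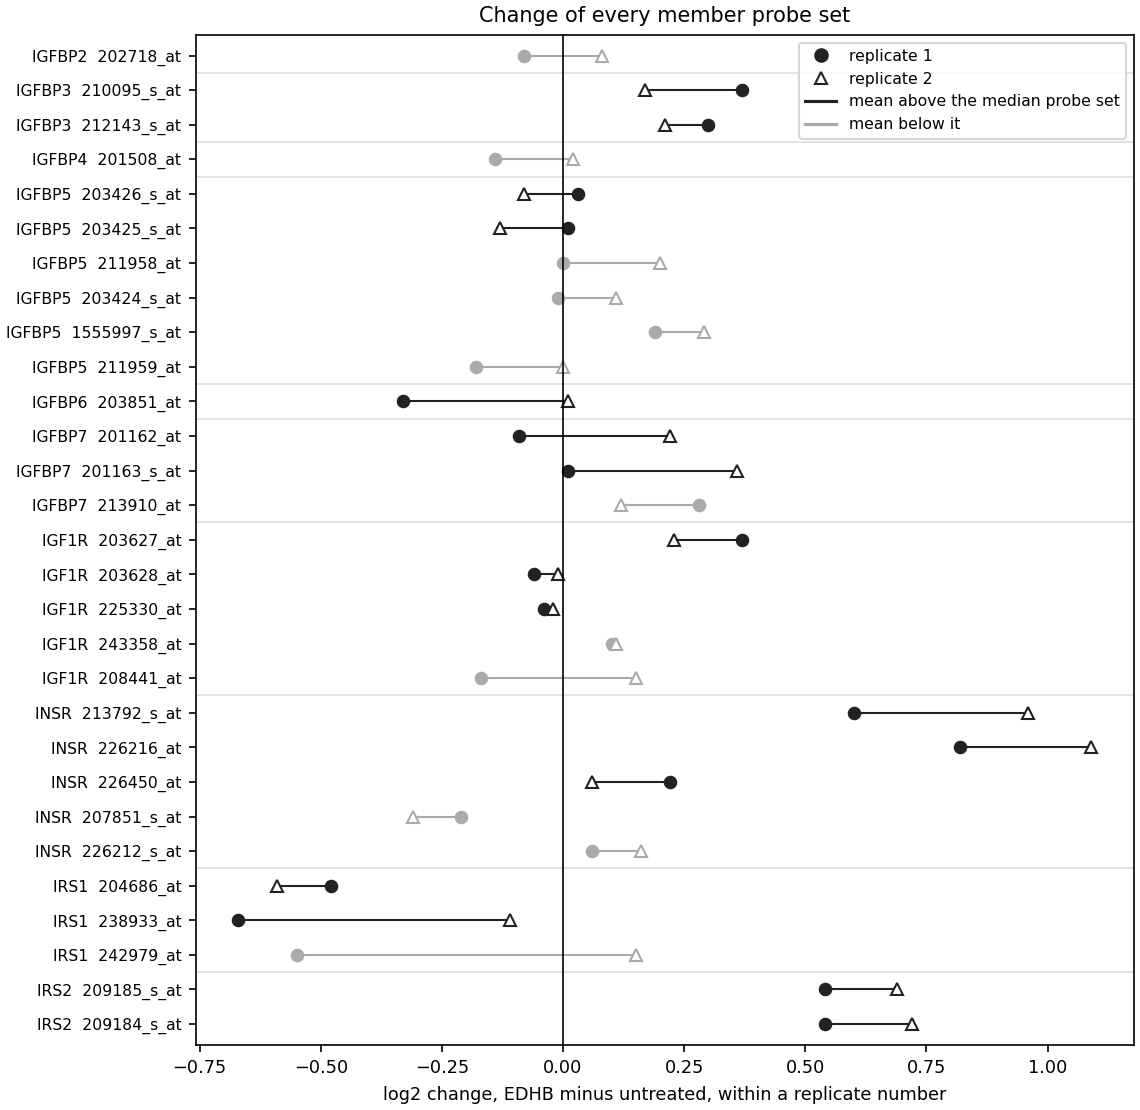
Log2 change (EDHB minus untreated) of all 29 member probe sets within replicate 1 (filled circles) and replicate 2 (open triangles), in black where the mean level lay above the median probe set and in grey where it lay below. Both IRS2 probe sets and the 2 brightest of INSR lie at 0.54 or more in both replicates, and the brightest of IRS1 lies at -0.48 and -0.59.

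Across all 29 probe sets, 13 were higher within both replicates, beside 29% of all 40964 restored probe sets with 1 gene, and 5 were lower, beside 31.3%. Of the others, 9 had opposite signs and 2 had a change of 0.00 in 1 replicate. The EDHB and untreated arrays did not overlap in 14 of the 29, 9 higher, beside 21.2% of those probe sets, and 5 lower, beside 22.6%. Among these were 4 INSR, 2 IRS2, 1 IGF1R, 1 IGFBP5 and 1 IGFBP7 probe sets higher, and 2 IRS1, 2 IGF1R and 1 INSR probe sets lower. Probe sets of 1 gene read the same transcripts and are not replicates of each other.

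**Figure D3:**
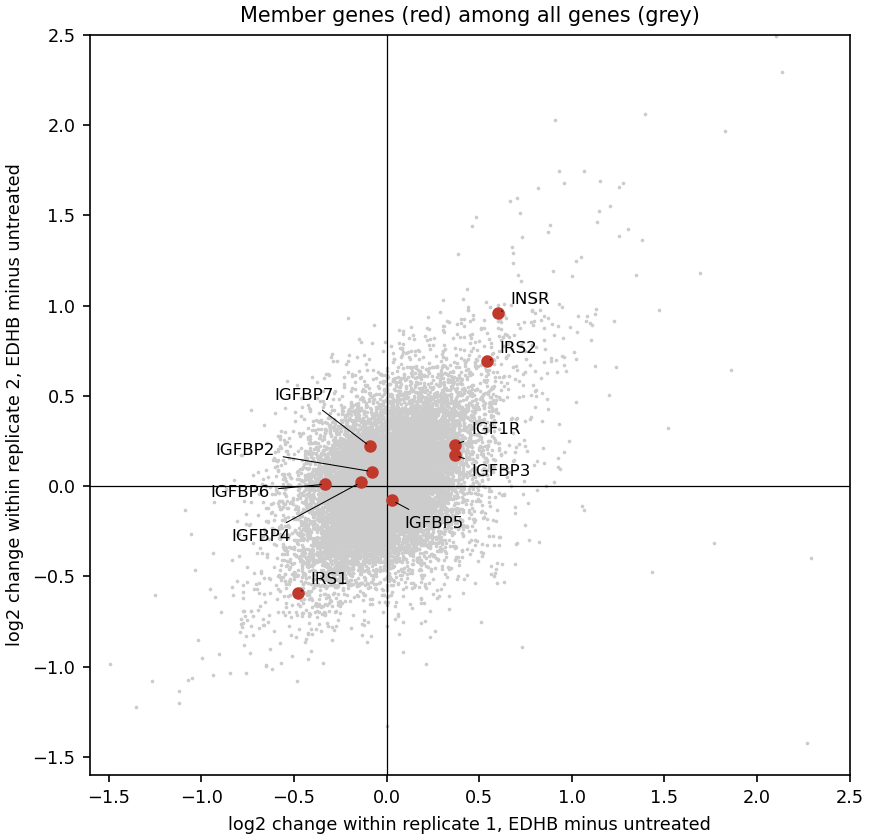
Log2 change within replicate 1 against that within replicate 2 for all 19751 genes (grey; 2 genes lie outside the axes) and the 10 members (red), each by its brightest probe set. INSR and IRS2 lie to the upper right, where 0.511% and 1.04% of genes had a mean change at least as high. IRS1 lies to the lower left, where 0.754% had one at least as low. Most binding proteins lie near the centre of the cloud.

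The sequences before the start sites of INSR, IRS2 and IRS1 are shown because these genes carried the largest differences, a pair higher and 1 lower. Each is the 250 bases upstream of the annotated start from RefSeq (GRCh38.p14), written 5′ to 3′ on the gene's strand. Capitals mark matches, on either strand, to the letters searched: the hypoxia response core (ACGTG or GCGTG), a forkhead form (GTAAACA), the cyclic AMP response core (TGACG), an insulin response element form (TGTTTTG), the GC box (GGGCGG) and the TATA box (TATAAA). The insulin response, GC box and TATA box letters were added after the sequences were seen. For these letters, shares of windows do not measure how unusual a match is. TGACG can overlap ACGTG, and neighbouring GC boxes can share bases.
INSR: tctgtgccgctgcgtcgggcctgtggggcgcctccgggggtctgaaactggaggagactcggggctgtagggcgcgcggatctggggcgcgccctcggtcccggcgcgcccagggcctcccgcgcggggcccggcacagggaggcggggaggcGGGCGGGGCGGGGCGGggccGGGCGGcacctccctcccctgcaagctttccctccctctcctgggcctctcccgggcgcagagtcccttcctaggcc
IRS2: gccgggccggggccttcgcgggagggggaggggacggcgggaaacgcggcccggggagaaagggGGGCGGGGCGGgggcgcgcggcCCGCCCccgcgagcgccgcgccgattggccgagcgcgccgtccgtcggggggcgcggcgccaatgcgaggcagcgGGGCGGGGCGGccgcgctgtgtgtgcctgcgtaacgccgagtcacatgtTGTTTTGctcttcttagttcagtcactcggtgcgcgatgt
IRS1: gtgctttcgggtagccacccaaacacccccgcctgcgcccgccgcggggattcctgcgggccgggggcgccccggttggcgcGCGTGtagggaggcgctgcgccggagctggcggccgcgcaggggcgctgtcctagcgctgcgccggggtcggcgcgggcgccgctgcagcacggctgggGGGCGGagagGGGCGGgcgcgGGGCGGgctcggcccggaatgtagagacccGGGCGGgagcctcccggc

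The INSR window lies at chr19:7294415-7294664 (minus strand), that of IRS2 at chr13:109786584-109786833 (minus strand) and that of IRS1 at chr2:226799821-226800070 (minus strand). They were rich in G and C, at 78.4% for INSR, 76.4% for IRS2 and 80.8% for IRS1, against a median of 58.0% over 35116 windows of this length. GC boxes numbered 4 before INSR, 5 before IRS2 and 4 before IRS1, and 42.6% of all windows held at least 1. None of the 3 windows held a TATA box (10.7% of all windows), the forkhead form GTAAACA (2.98%) or the cyclic AMP response core (21.2%). This does not speak to other sequences that forkhead factors may bind.

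The hypoxia core was found before IRS1, as 1 GCGTG that begins 168 bases upstream of the start, and not in the windows of INSR and IRS2. Either form of the core was in 43.2% of all windows. The insulin response form TGTTTTG was found once before IRS2, beginning 40 bases upstream of the start, and in 4.30% of all windows. Its letters were added after this sequence was seen, so the share does not measure how unusual the match is. A match here is a run of letters, and these arrays hold no measurement of binding. Of the 10 members, 9 had a window. IGF1R held 5 hypoxia core matches and IGFBP3 held 3. IGFBP2 had several windows, of which 1 held 1 match.

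Ligands, further binding proteins and the proteins that act on them came from a list of 15 genes, of which 14 were analysed. The probe sets of IGF2 were annotated to several genes and were not used here. In limma 0 of 14 passed over all genes, with 3 higher, beside 8.81% of all genes, and 2 lower, beside 7.98%, at an unadjusted p under 0.05. With the intensity trend 2 passed, both higher (STC2 and STC1), beside 1.07% of all genes. Both calls were lost with a replicate block added to the trend and without any 1 of the 4 arrays. The groups did not overlap in 5 genes higher, beside 23.2% of all genes, and in 4 lower, beside 22.5%. The median change was 0.08. STC2, a stanniocalcin that inhibits the IGFBP protease PAPPA, had levels of 7.63 and 7.57 in EDHB cells, against 6.92 and 6.67 in untreated cells. Both EDHB arrays lay above, with a change of 0.80 ± 0.11 (SE; limma adjusted p = 0.104, 0.0318 with the trend). STC1, its relative, had 4.25 and 4.16 against 3.51 and 3.53, all below the median probe set, so no fold is given. The groups overlapped on its 2 other probe sets, which were also below the median, with changes of 0.05 and 0.24.

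IGF2R, which takes up IGF2 for degradation in lysosomes, had 9.05 and 8.92 in EDHB cells, against 8.64 and 8.59 in untreated cells (0.38 ± 0.09, SE; limma adjusted p = 0.159). Of its 2 other probe sets, 1 was higher by 0.27 and 1 overlapped between groups, at -0.21. ADAM12, a metalloprotease known to cleave IGFBP3 and IGFBP5, had 6.39 and 6.41 against 6.72 and 6.74 (-0.33 ± 0.07, SE; limma adjusted p = 0.156). IGFBP1, the binding protein known to be induced by hypoxia and by FOXO in liver, lay between 1.48 and 1.93 on all 4 arrays, far below the median probe set. IGF1 lay between 4.51 and 4.76, close to the median.

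Signalling genes below the receptors came from a list of 44, of which 39 were analysed. In limma 0 of 39 passed, with 7 higher, beside 8.81% of all genes, and 2 lower, beside 7.98%, at an unadjusted p under 0.05. With the intensity trend 1 passed (TRIB3, higher), beside 1.07% of all genes passing higher. The TRIB3 call was lost in the same fits as those of STC2 and STC1. The groups did not overlap in 16 genes higher, beside 23.2% of all genes, and in 3 lower, beside 22.5%. The median change was 0.06 with a range of -0.25 to 0.76. TRIB3, a pseudokinase that binds AKT, had 9.32 and 9.34 in EDHB cells, against 8.70 and 8.43 in untreated cells (0.76 ± 0.11, SE; limma adjusted p = 0.115, 0.0318 with the trend). Its other probe set was higher by 0.69.

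GAB1, a docking protein that works beside the IRS proteins, had 6.06 and 6.08 in EDHB cells against 5.70 and 5.71 in untreated cells (0.37 ± 0.07, SE; limma adjusted p = 0.145). RICTOR, the subunit that defines mTORC2, the kinase complex that phosphorylates AKT, had 8.95 and 9.00 against 8.63 and 8.60 (0.36 ± 0.07, SE; limma adjusted p = 0.148). In both genes every EDHB array lay above both untreated arrays, and the remaining members of the list differed by less.

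**Figure D4:**
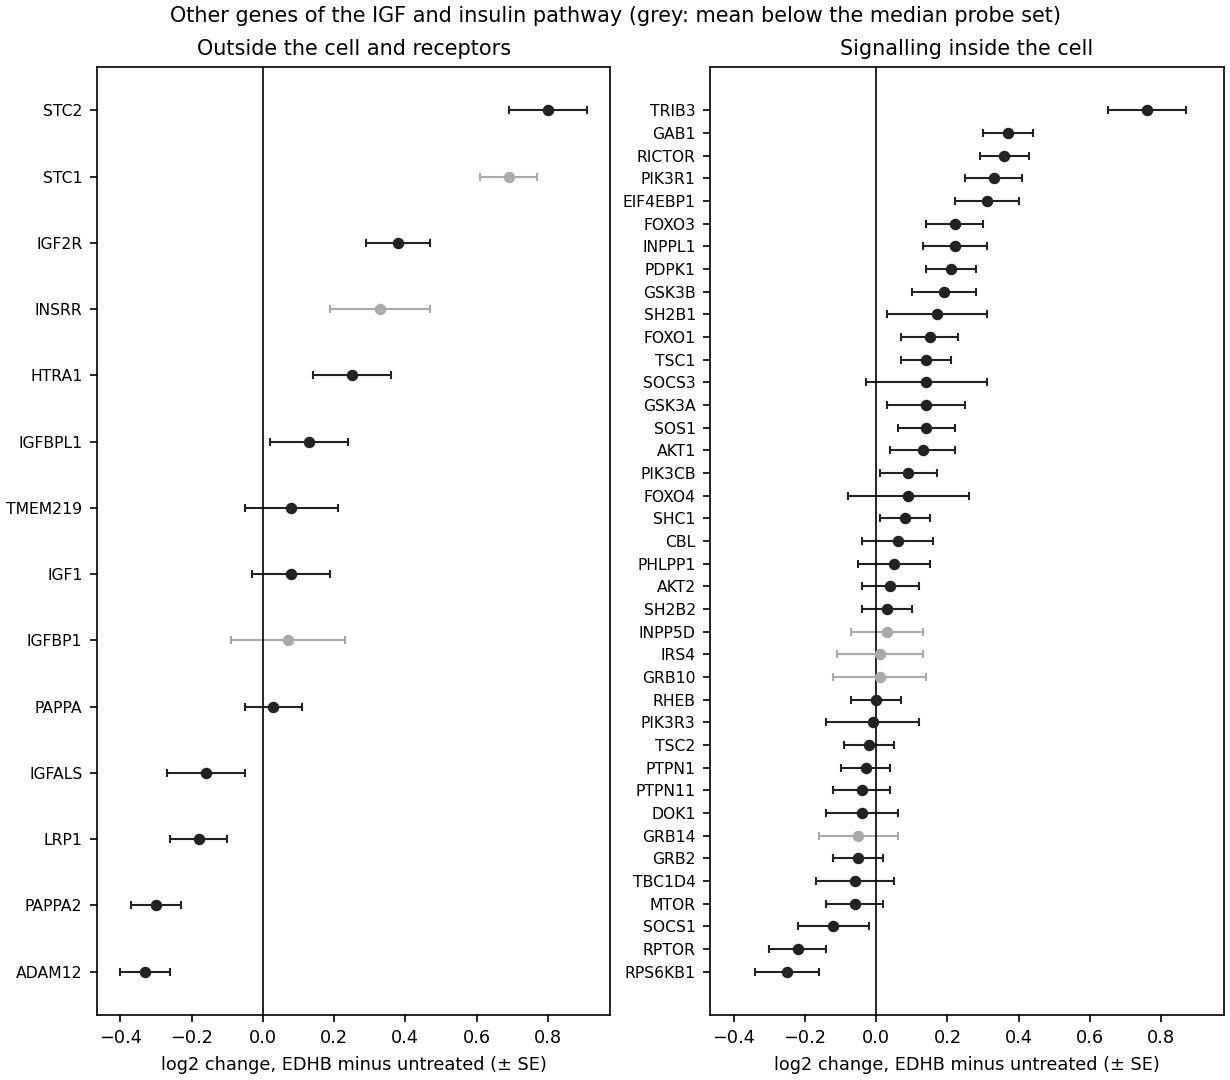
Log2 change (EDHB minus untreated, with SE from limma, 2 arrays per group) of the 14 genes outside the cell and the 39 signalling genes inside it, in grey where the mean level lay below the median probe set. STC2 at 0.80 and TRIB3 at 0.76 lead their lists, and the other signalling genes lie between -0.25 and 0.37.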

How the data were processed

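Values deposited by the authors were linear intensities, 1 for every probe set on each array, and the submitters' processing notes name RMA. Its version and the genome build are not given in the sources used here. Because RMA makes the arrays' distributions alike, global differences are removed. The log2 of each intensity was taken directly. Of the 54613 probe sets, 41091 had 1 gene in the platform annotation, 1801 several and 11721 none listed.

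The replicate 2 columns stood in another row order than the IDs. Rows were first put in a replicate 1 order: its own 2-fold higher list, its 2-fold lower list, then the rest. In that order the replicate 2 columns opened with 148 probe sets at least 2-fold higher in EDHB cells and 45 at least 2-fold lower. To leave this run unbroken, 3 rows at least 2-fold changed in replicate 1 were moved to its rest. The replicate 2 rest held 9 rows changed at least 2-fold. Replicate 2 values were taken to run in ID order within each block. This layout is inferred from the values. Identities were recovered by a forward-backward alignment of untreated levels only (Student's t density, scale 0.15, 3 degrees of freedom) and kept at a posterior of at least 0.95, which held for 54459 probe sets (99.7%). Of 193 list values 80 stayed unplaced. The EDHB arrays correlated at 0.418 as deposited and 0.997 once restored. On simulated data of known order, drawn with the noise the alignment assumes, 54494 probe sets were restored, 2 of them wrongly, and 131 of 193 list values were placed. Matching on untreated levels favours small gaps between the untreated arrays.

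Each gene took its brightest restored probe set (19751 genes). The test of EDHB against untreated used limma 3.58.1 (R 4.3.3) with its default eBayes prior, no block and Benjamini-Hochberg adjustment over all genes, with 2 residual and 2.99 prior degrees of freedom. On simulated data this fit recovered 2% of genes changed by 0.5 log2 units and 78% of those changed by 1 (24% and 82% with the intensity trend). The simulated variances were drawn from the prior of the trend fit, which favours that fit, so the simulation cannot rank the fits. Its noise was independent between arrays and left out any likeness of same-numbered arrays. Python 3.11.15 was used elsewhere. The members, lists and tests were chosen with earlier results of these data known. All members were named, and of the pathway lists the genes passing with or without the trend and the 3 largest changes per list among genes above the median probe set. Some genes of the fixed lists were not analysed here. Upstream sequences came from RefSeq (GRCh38.p14).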

Additional observations from a re-analysis of the deposited data

How the results depend on the processing

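Among all genes 2 passed, both higher, and the count became 375 with the intensity trend (211 higher), 426 without genes below the median probe set, 40 with arrays centred on their medians (30 higher), 7 with cyclic loess (5 higher), 38 with the mean of a gene's probe sets, 0 with a posterior minimum of 0.5, 0 when probe sets were fitted singly, 0 without any 1 of the 4 arrays and 0 with the replicate block (3208 at an unadjusted p under 0.05 in limma, against 3317 without the block). With the trend, 2 of 10 members and 3 of 53 pathway genes passed, beside 375 of 19751 genes. Without dim genes, 2 of 8 members and 2 of 46 pathway genes passed, beside 426 of 12394 genes. The members were INSR and IRS2 in both fits. Under the other alternatives that kept all 4 arrays, 0 members and 0 pathway genes passed. The trend fits with a replicate block, or without any 1 array, were added after the data were seen and called 0 genes. Where an array was left out, its lone partner was assumed to vary like the others. INSR, IRS1, IRS2, IGF1R, IGFBP4 and IGFBP6 kept their direction under every alternative run with the fit. Directions turned for 4 binding proteins, none of which passed in any fit. Without 1 array, the change of IGFBP3 ran from -0.111 (without untreated replicate 1) through -0.014 (without EDHB replicate 2) to 0.648, that of IGFBP5 from -0.069 to 0.012 (without EDHB replicate 2), that of IGFBP2 from -0.076 (without untreated replicate 2) to 0.076 and that of IGFBP7 from -0.04 (without untreated replicate 2) to 0.173. IGFBP5 was also at 0.034 with the mean of its probe sets, and the replicate 1 pair alone gave 0.03 for IGFBP5 and -0.09 for IGFBP7. Deviations of same-numbered arrays correlated at 0.215 across genes, and the labels give no pairing beyond the number. The cause of these changes was not tested. Precision is limited by 2 arrays a group, and genes below the median probe set have no level shown to be above background.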
